A study of Homo sapiens with 15 samples.

Results

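The genes that build fatty acids and assemble them into triglyceride were followed through fat cell formation and through exposure to tumour cell medium in ASC52, human adipose mesenchymal stem cells immortalised with telomerase. A list of 39 enzymes, carriers and regulators of the pathway was taken by gene symbol, and 33 of them were represented by a probe set among the 17687 named genes of the microarray. ELOVL1, FADS1, AGPAT3, LPIN1, DGAT1 and ACSL3 were not analysed here. No filter on low values was applied, so all 33 entered the tests. The 15 arrays fell into 3 groups of 5. DED cells had been made into adipocytes over 14 days, starting 3 days after seeding, and then spent 7 days in conditioned medium taken from MDA-MB-231 breast carcinoma cells. MA cells, the mature adipocytes, had the same 14 days of differentiation and then 7 days in plain RPMI, with serum at 10% in both media. MSC cells were the undifferentiated line, listed at 3 days after seeding, with no differentiation, later medium or serum recorded for them. Time in culture, and possibly medium, therefore differ between MSC and the other groups and cannot be told apart from differentiation. All 3 groups share the hTERT-immortalised ASC52 background, so they describe 1 line, and the labels do not say whether the 5 arrays of a group came from separate cultures. The p-values therefore speak only of the spread between the arrays at hand, which may be technical.

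Fat cells make fatty acids from cytosolic acetyl-CoA, which comes from citrate carried out of mitochondria or from acetate. Acetyl-CoA carboxylase and fatty acid synthase build the chain, elongases and desaturases modify it, and acyl-CoA synthetases activate it. Activated chains are joined in turn to glycerol 3-phosphate, through lysophosphatidate, phosphatidate and diacylglycerol, to give the triglyceride of the lipid droplet. Insulin and carbohydrate raise many of these enzymes through the transcription factors SREBP-1 and ChREBP.

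The pathway was higher in MA than in MSC at nearly every step, and was lower again in DED at most steps, by very unequal amounts. DED and MA differ in the last medium, conditioned by tumour cells in DED and plain RPMI in MA. No group had medium conditioned by other cells. An effect particular to tumour cells therefore cannot be told apart from conditioning by any cells. In DED against MA, ACSS2, GPD1, THRSP and ELOVL6 had the largest falls among the members, with log2 differences of -3.50, -3.13, -2.91 and -2.81. ACACA, FADS2, AGPAT1, GPAT3, GPAT4, LPIN2, LPIN3, ACSL4, MLXIPL and PNPLA3 did not pass the test. FADS3 rose. Of the 33 genes 22 passed as lower and 1 as higher (limma over all 17687 genes, Benjamini-Hochberg adjusted p under 0.05), that is 66.7% and 3.0% of the members. Over all genes 13.0% passed as lower and 12.9% as higher. The median log2 difference of the members was -0.86, against 0.018 over all genes. In 20 members every DED array lay below every MA array, and in 1 every DED array lay above. Over all genes these shares were 9.48% and 8.61%.

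In MA against MSC, which spans differentiation together with the longer culture, THRSP, GPD1 and ACACB rose by 8.43, 8.14 and 7.63 on the log2 scale. Their MSC means of 4.31, 4.31 and 6.05 were below 8.31, a level that 95% of negative control values, pooled over arrays, do not exceed. The sizes and the order of these rises therefore depend on background. Of the 33 members 29 passed as higher and 1, GPAT3, as lower, where 15.4% and 17.6% of all genes did. Their median log2 difference was 1.86, and that of all genes was -0.002. The groups of arrays did not overlap in 28 members that were higher in MA and in 0 that were lower, against 12.4% and 14.6% of all genes. ACSL4, GPAT4 and LPIN2 passed in no comparison.

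In DED against MSC, the test of how far the genes returned to the level of stem cells, 23 members were higher and 2 were lower, where 17.1% and 16.4% of all genes passed. The median was 0.93, against 0.028 over all genes. Groups did not overlap in 23 members that were higher in DED and in 2 that were lower, where 12.4% and 12.7% of all genes did not. Of the 22 members that rose in MA and fell in DED, 17 still stood above MSC in DED. The share among all genes with that rise and fall was not computed, so this count is not read as particular to the pathway. SLC25A1, ACLY, ACSL5 and MOGAT1 did not pass against MSC, and BSCL2 fell below it. The 3 comparisons share arrays, so their counts are not independent of each other.

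**Figure D1:**
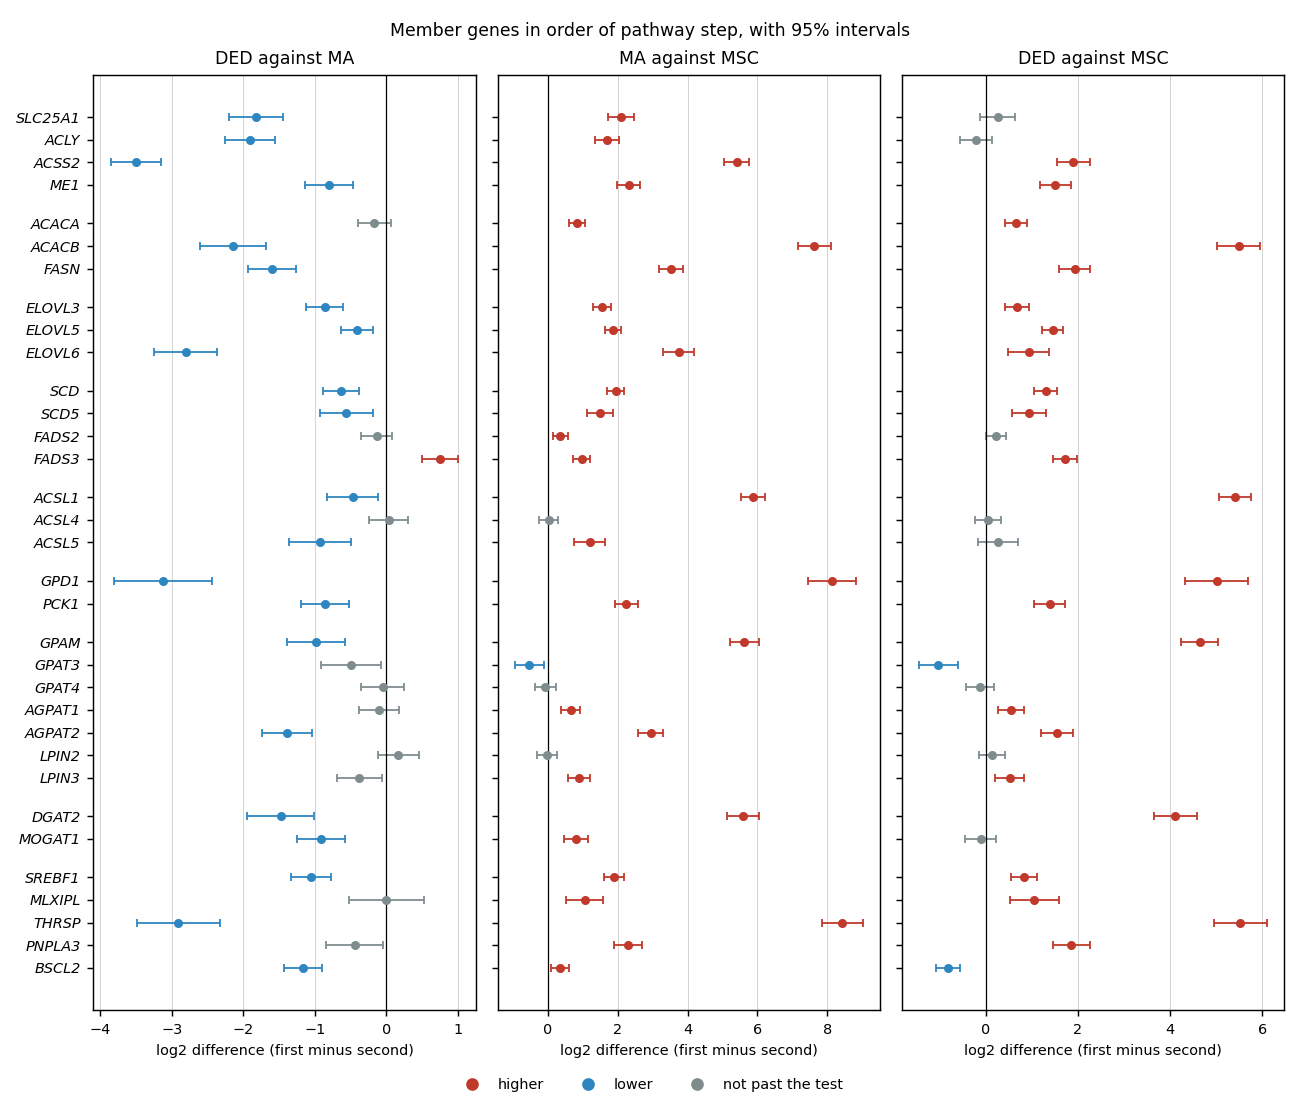
Log2 difference of each of the 33 member genes (rows, in order of pathway step) for DED against MA, MA against MSC and DED against MSC, with 95% intervals from limma. Red points passed as higher, blue as lower and grey did not pass; FADS3 is the red point in the left panel, and most points in the middle panel are red.

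Several facts of the series touch these values. In the check of the labels, all 8 markers of mature adipocytes rose in MA against MSC and 7 of 8 fell in DED against MA, with a mean log2 intensity of 9.38 to 10.51 in DED, 11.33 to 11.45 in MA and 5.22 to 5.47 in MSC. Of the 4 markers of mesenchymal stem cells, THY1 and ENG rose in DED against MA and NT5E fell. The 3 measured leukocyte, 3 endothelial and 4 epithelial markers passed in 0 comparisons, and the means of each list lay between 5.18 and 5.89 in every array. KRT8, an epithelial marker, stood above these means, at 9.16 in DED, 8.99 in MA and 8.94 in MSC. The 2 markers of dividing cells, MKI67 and TOP2A, averaged 5.86 to 7.53 in DED, 9.20 to 9.82 in MA and 11.88 to 12.04 in MSC. The part of these shifts in the results was not tested. In such bulk samples, fewer fat cells and less RNA per fat cell cannot be told apart. RMA brings the arrays to a common distribution, so a change shared by all genes cannot be seen.

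DED array 1 stood apart in this pathway. The mean over the 33 members was 10.50 in that array and 9.87 to 10.05 in the other DED arrays, against 11.01 to 11.09 in MA and 8.48 to 8.62 in MSC. Of the 22 genes lower in DED, 20 were highest in array 1 among the DED arrays. Its adipocyte marker mean was 10.51, against 9.38 to 9.65 in the other DED arrays. Without DED array 1 the counts against MA were 23 lower and 1 higher, and against MSC 3 lower and 23 higher. Log2 differences of DED against MA without it are given beside the main ones for ACSS2, ACACB, ELOVL6, GPD1, GPAM, DGAT2 and THRSP. Background was read from 612 negative control probe sets, whose median was 4.80 and whose 95th percentile was 8.31. In 10 members, ELOVL3, SCD5, ACSL4, ACSL5, GPAT3, GPAT4, LPIN3, MOGAT1, MLXIPL and PNPLA3, all 3 group means lay under that percentile, and their differences depend on background. The same holds in MSC alone for ACSS2, ACACB, ACSL1, GPD1, PCK1, AGPAT2 and THRSP, so the sizes of their differences against MSC depend on background too. In DED, ACSS2 was close to 8.31, with a mean of 8.41 and arrays 3, 4 and 5 under it. In MSC, GPAM was close to it, with a mean of 8.41 and arrays 1 and 4 under it. SLC25A1 was close to it too, with an MSC mean of 8.35, and its DED arrays 3 and 5 lay under it.

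**Figure D2:**
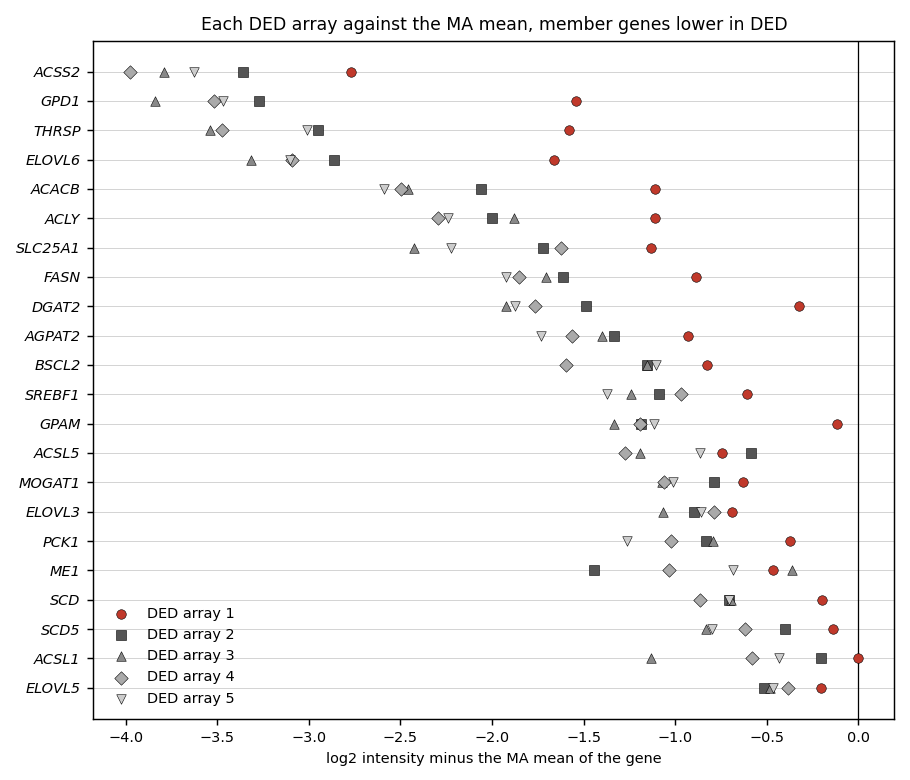
Log2 intensity of each DED array minus the MA mean, for the 22 member genes lower in DED, ordered by mean difference. Array 1 (red circles) is nearest to the MA mean in 20 of the 22 genes, and GPAM in array 1 lies close to 0.

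Promoter windows are shown for the 3 largest falls in DED with an entry in the RefSeq table (GRCh38.p14) and for FADS3, the gene that rose, so that the sequences upstream of opposite responses can be set side by side. Each window runs from 250 bases before the annotated start to 50 after it, and 26 of the 33 members had at least 1. FASN, GPD1, PCK1, GPAT4, LPIN3, DGAT2 and PNPLA3 are named only. Capitals mark CCAAT and GGGCGG boxes on either strand (ATTGG and CCGCCC on the other).
ACSS2, the upstream one of 2 windows, chr20:34874739-34875038, + strand: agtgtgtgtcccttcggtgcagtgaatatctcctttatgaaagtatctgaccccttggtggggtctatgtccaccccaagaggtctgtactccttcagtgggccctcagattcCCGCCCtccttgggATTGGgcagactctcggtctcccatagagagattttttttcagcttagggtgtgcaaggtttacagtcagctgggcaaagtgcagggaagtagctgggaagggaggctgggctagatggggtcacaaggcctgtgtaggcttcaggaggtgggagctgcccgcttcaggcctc
THRSP, chr11:78063611-78063910, + strand: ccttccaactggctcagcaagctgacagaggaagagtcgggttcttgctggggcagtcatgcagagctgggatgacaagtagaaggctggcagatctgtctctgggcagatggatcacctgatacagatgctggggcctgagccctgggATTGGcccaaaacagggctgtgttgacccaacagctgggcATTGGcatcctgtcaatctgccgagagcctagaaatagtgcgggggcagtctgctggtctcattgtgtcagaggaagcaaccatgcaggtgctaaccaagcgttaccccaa
ELOVL6, chr4:110198566-110198865, - strand: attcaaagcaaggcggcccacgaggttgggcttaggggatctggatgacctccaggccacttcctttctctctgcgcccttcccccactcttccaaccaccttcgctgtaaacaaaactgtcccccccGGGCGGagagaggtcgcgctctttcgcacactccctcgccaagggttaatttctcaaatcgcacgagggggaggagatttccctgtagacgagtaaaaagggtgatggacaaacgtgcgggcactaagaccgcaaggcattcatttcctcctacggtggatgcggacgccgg
FADS3, chr11:61891496-61891795, - strand: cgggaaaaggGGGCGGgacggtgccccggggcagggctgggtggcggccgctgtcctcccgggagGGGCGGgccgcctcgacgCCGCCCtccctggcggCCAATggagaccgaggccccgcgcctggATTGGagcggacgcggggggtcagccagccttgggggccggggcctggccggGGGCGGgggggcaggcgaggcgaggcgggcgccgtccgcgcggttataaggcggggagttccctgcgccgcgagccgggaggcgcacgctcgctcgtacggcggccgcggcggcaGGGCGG
The THRSP window held 2 CCAAT boxes and 0 GGGCGG boxes, the ACSS2 window 1 and 1, and the ELOVL6 window 0 and 1. The FADS3 window held 2 and 5. Over the 45 windows of the members 20 held CCAAT and 32 held GGGCGG. Over all 35116 windows the shares were 34.61% and 44.95%. The sterol response letters TCACNCCAC stood in 1 member window, one of ACSL1, and in 1.13% of all windows. The E-box CACGTG stood in 2, of ELOVL5 and LPIN2, and in 7.26% of all windows. In the 4 sequences shown no CCAAT box overlapped a GGGCGG box. A match is a description of these letters only.

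All 4 genes of acetyl-CoA and NADPH supply rose in MA against MSC and fell in DED against MA. ACSS2, which makes cytosolic acetyl-CoA from acetate, and whose promoter is shown above, had the largest fall of the 33 members. It read 9.15, 8.56, 8.13, 7.94 and 8.29 in DED arrays 1 to 5. In MA arrays it read 11.83, 11.95, 11.83, 12.03 and 11.95, and in MSC arrays 6.55, 6.76, 6.50, 6.26 and 6.47, all as log2 intensity. The 3 groups did not overlap, and DED lay between MA and MSC. The log2 difference of DED against MA was -3.50 (SE 0.17, limma adjusted p = 1.0e-11), and -3.69 without DED array 1. DED arrays 3, 4 and 5 lay under the 8.31 limit of background, so the size of this fall depends on background. Against MSC, ACSS2 was still higher in DED by 1.91 (SE 0.17, limma adjusted p = 1.5e-08).

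ACLY, which splits exported citrate into acetyl-CoA, and SLC25A1, the mitochondrial carrier that exports the citrate, fell in DED to levels that did not pass against MSC. ACLY read 14.77, 13.88, 14.0, 13.59 and 13.64 in DED, 15.97, 16.01, 15.75, 15.97 and 15.71 in MA and 14.18, 14.25, 14.08, 14.14 and 14.28 in MSC. Apart from array 1, the 4 DED arrays lay below every MSC array. ACLY fell 3.75-fold in DED against MA (log2 difference -1.91, SE 0.17, limma adjusted p = 3.2e-08). Against MSC its difference was -0.21 (95% interval -0.56 to 0.14, limma adjusted p = 0.38). Without DED array 1 it was -0.41 (limma adjusted p = 0.0088), and without DED arrays 1 and 3 it was -0.48 (limma adjusted p = 0.0033), so whether ACLY passed as lower than MSC depends on DED array 1. The adjusted p over all alternatives of this difference ran from 0.0033 to 0.69.

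SLC25A1 read 9.30, 8.71, 8.01, 8.81 and 8.21 in DED, 10.40, 10.29, 10.34, 10.37 and 10.77 in MA and 8.38, 8.35, 8.25, 8.35 and 8.40 in MSC. Its DED arrays fell on both sides of the narrow MSC range. The MSC mean was 8.35, and MSC array 3 and DED arrays 3 and 5 lay under the 8.31 limit of background. The sizes of its fall and of its difference against MSC therefore depend on background. The difference of DED against MA was -1.83 (SE 0.18, limma adjusted p = 1.4e-07), and that of DED against MSC was 0.26 (95% interval -0.11 to 0.64). ME1, the cytosolic malic enzyme that yields NADPH, had a smaller fall, with 11.09 ± 0.44 in DED and 11.88 ± 0.10 in MA (SD, n = 5 each), and it stayed above MSC, at 9.57 ± 0.15. ME1 was higher in DED than in MSC by 1.51 (SE 0.16, limma adjusted p = 2.1e-07).

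In chain building, the 2 acetyl-CoA carboxylases differed. ACACB, the carboxylase bound to mitochondria, whose product malonyl-CoA also restrains fatty acid oxidation, read 12.57, 11.62, 11.22, 11.18 and 11.09 in DED. It read 13.54, 13.68, 13.68, 13.95 and 13.54 in MA and 5.98, 5.81, 5.85, 6.60 and 6.0 in MSC. No groups overlapped. ACACB rose by 7.63 on the log2 scale in MA (SE 0.22) and fell by 2.14 in DED against MA (SE 0.22, limma adjusted p = 2.9e-07), and the difference was -2.40 without DED array 1. It was still above MSC by 5.49.

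ACACA, the cytosolic carboxylase of fatty acid synthesis, moved far less. It read 12.17, 11.75, 11.71, 11.63 and 11.90 in DED, 12.05, 12.06, 12.02, 12.09 and 11.77 in MA and 11.24, 11.25, 11.10, 11.14 and 11.14 in MSC. DED and MA overlapped, and both lay above MSC. The difference of DED against MA was -0.17 (95% interval -0.40 to 0.067, limma adjusted p = 0.32), and ACACA rose by 0.82 in MA against MSC (SE 0.11, limma adjusted p = 5.7e-06). FASN, fatty acid synthase, read 14.35, 13.62, 13.53, 13.38 and 13.31 in DED, 15.27, 15.39, 15.20, 15.13 and 15.18 in MA and 11.83, 12.0, 11.49, 11.51 and 11.69 in MSC. Its DED arrays lay between the other groups with no overlap. FASN was 3.02-fold lower in DED than in MA (log2 difference -1.60, SE 0.16, limma adjusted p = 2.2e-07) and 3.82-fold higher in DED than in MSC.

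Among the elongases, ELOVL6, which lengthens palmitate to stearate, fell most in DED. It read 11.84, 10.64, 10.19, 10.41 and 10.40 in DED, 13.39, 13.54, 13.50, 13.65 and 13.44 in MA and 9.78, 9.78, 9.69, 9.78 and 9.78 in MSC. Every DED array lay above every MSC array, array 1 by the widest margin. The fall in DED against MA was 7.00-fold (log2 difference -2.81, SE 0.21, limma adjusted p = 3.2e-09), and the log2 difference was -3.09 without array 1. Against MSC, ELOVL6 was higher in DED by 0.93 (SE 0.21), or by 0.65 without array 1. Its SD was 0.66 in DED and 0.04 in MSC, and the SE pools the spread of all groups. ELOVL5, which lengthens polyunsaturated chains, had a small fall, with 14.16 ± 0.12 in DED and 14.57 ± 0.12 in MA, against 12.71 ± 0.17 in MSC. ELOVL3, an elongase of very long saturated chains, was dim, at 4.72 ± 0.14 in DED, 5.58 ± 0.19 in MA and 4.04 ± 0.21 in MSC, near or under the negative control median.

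The desaturases did not move as 1 group. SCD, stearoyl-CoA desaturase, which makes oleate, averaged 16.34 ± 0.25 in DED and 16.98 ± 0.06 in MA, against 15.04 ± 0.15 in MSC. Its DED value in array 1 was 16.78, and the other DED arrays lay at 16.11 to 16.28. SCD fell 1.55-fold in DED against MA (log2 difference -0.63, SE 0.12, limma adjusted p = 0.00045). SCD5, a second stearoyl-CoA desaturase, was dim and its DED and MA arrays overlapped. It fell by 0.56 on the log2 scale in DED against MA (SE 0.18, limma adjusted p = 0.023), a call that was lost without MA array 2 or 5 or DED array 3 or 5, where the limma adjusted p was 0.061 to 0.075, in a range of 0.0078 to 0.075 over all alternatives.

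FADS2, the first desaturase of polyunsaturated fatty acids, had 14.72 ± 0.10 in DED, 14.86 ± 0.06 in MA and 14.50 ± 0.18 in MSC. The difference of DED against MA was -0.13 (95% interval -0.35 to 0.085, limma adjusted p = 0.41). FADS3, its neighbour in the same family, which acts on sphingoid bases, read 10.62, 10.63, 10.70, 10.75 and 10.25 in DED, 9.89, 9.72, 9.77, 10.14 and 9.65 in MA and 8.93, 9.0, 8.67, 8.82 and 8.92 in MSC. The groups of FADS3 did not overlap, and DED was the highest of them. It rose by 0.97 in MA against MSC (SE 0.12, limma adjusted p = 2.0e-06) and by a further 0.76 in DED against MA (SE 0.12, limma adjusted p = 6.9e-05). FADS3 was the only one of the 33 members that passed as higher in both.

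Of the 3 measured acyl-CoA synthetases among the members, ACSL1, the main long-chain form of fat cells, rose most in MA and fell little in DED. It read 14.15, 13.95, 13.02, 13.57 and 13.72 in DED, 14.18, 14.24, 14.22, 14.11 and 14.01 in MA and 8.52, 8.53, 8.06, 7.96 and 8.31 in MSC. DED and MA overlapped, and DED array 3 was the lowest. ACSL1 fell by 0.47 in DED against MA (SE 0.17, limma adjusted p = 0.047), and its difference was -0.30 without DED array 3. The call was also lost without MSC array 5, any 1 MA array, DED array 4 or 5, with arrays shifted to 1 median and with only the 2 groups fitted, where the limma adjusted p was 0.054 to 0.14 (over all alternatives 0.011 to 0.14). Against MSC, ACSL1 was higher in DED by 5.41 (SE 0.17, limma adjusted p = 2.0e-15).

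ACSL4, which prefers arachidonate, was 7.29 ± 0.20 in DED, 7.25 ± 0.25 in MA and 7.23 ± 0.14 in MSC. Its difference was 0.03 in DED against MA (95% interval -0.24 to 0.31), and such dim values limit what can be seen. ACSL5, a synthetase of mitochondria and the endoplasmic reticulum, was 6.96 ± 0.29 in DED, 7.89 ± 0.22 in MA and 6.70 ± 0.55 in MSC. ACSL5 fell by 0.93 in DED against MA (SE 0.21, limma adjusted p = 0.0019).

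The glycerol backbone came next. GPD1, which makes glycerol 3-phosphate from a glycolytic intermediate, read 10.91, 9.18, 8.61, 8.93 and 8.98 in DED, 12.79, 12.40, 12.22, 12.36 and 12.48 in MA and 4.45, 4.47, 4.43, 4.89 and 3.33 in MSC. DED array 1 stood well above the other DED arrays, and no groups overlapped. GPD1 fell by 3.13 in DED against MA (SE 0.33, limma adjusted p = 3.6e-07), and the difference was -3.53 without array 1. PCK1, which serves glyceroneogenesis in fat, was 8.65 ± 0.33 in DED, 9.50 ± 0.22 in MA and 7.25 ± 0.28 in MSC. It fell by 0.86 in DED against MA (SE 0.16, limma adjusted p = 0.00044).

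Among acyltransferases, GPAM, the mitochondrial enzyme that adds the first acyl chain, read 13.92, 12.85, 12.70, 12.84 and 12.92 in DED, 13.93, 14.01, 14.0, 14.21 and 14.02 in MA and 8.18, 8.85, 8.40, 7.99 and 8.61 in MSC. DED array 1 lay just under the lowest MA array, and the other 4 DED arrays lay about 1 log2 unit lower. MSC arrays 1 and 4 lay under the 8.31 limit, so the sizes of GPAM differences against MSC depend on background. GPAM fell by 0.99 in DED against MA (SE 0.20, limma adjusted p = 0.00063), and the difference was -1.21 without array 1. GPAT4 and GPAT3, its relatives of the endoplasmic reticulum, were dim. GPAT4 was 7.68 ± 0.23 in DED, 7.73 ± 0.26 in MA and 7.80 ± 0.20 in MSC, with a difference of -0.052 in DED against MA (95% interval -0.35 to 0.25).

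GPAT3 was the one member that passed as lower in MA than in MSC. It read 5.57, 4.59, 4.98, 4.72 and 5.28 in DED, 6.03, 5.54, 5.24, 5.42 and 5.37 in MA and 5.96, 5.75, 6.12, 5.77 and 6.64 in MSC. DED and MSC did not overlap, while MA overlapped both. GPAT3 was lower in DED than in MSC by 1.02 on the log2 scale (SE 0.20, limma adjusted p = 0.00034). It fell by 0.53 in MA against MSC (SE 0.20, limma adjusted p = 0.046), a call that was lost without MSC array 1, 3 or 5, MA array 2, 3, 4 or 5 or DED array 3 or 5, where the limma adjusted p was 0.050 to 0.15 (over all alternatives 0.015 to 0.15). In DED against MA the difference of GPAT3 was -0.49 (limma adjusted p = 0.077, and 0.020 without DED array 1, in a range of 0.02 to 0.21 over all alternatives).

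AGPAT2, which adds the second chain and whose loss causes lipodystrophy, read 9.69, 9.29, 9.22, 9.06 and 8.89 in DED, 10.34, 10.49, 10.88, 10.34 and 11.06 in MA and 7.76, 7.82, 7.30, 7.82 and 7.71 in MSC. The groups did not overlap. AGPAT2 fell 2.62-fold in DED against MA (log2 difference -1.39, SE 0.17, limma adjusted p = 1.9e-06). AGPAT1, the broadly expressed form, was 11.97 ± 0.23 in DED, 12.07 ± 0.09 in MA and 11.42 ± 0.26 in MSC, with a difference of -0.10 in DED against MA (95% interval -0.38 to 0.18). Of the lipins, the phosphatases that turn phosphatidate into diacylglycerol, LPIN2 was 9.97 ± 0.21 in DED, 9.80 ± 0.27 in MA and 9.83 ± 0.12 in MSC. LPIN3 was 7.24 ± 0.24 in DED, 7.61 ± 0.27 in MA and 6.71 ± 0.26 in MSC. LPIN3 passed as higher in MA against MSC and not in DED against MA (limma adjusted p = 0.079, 0.028 without MA array 5 and 0.037 without DED array 5).

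DGAT2, which makes the final triglyceride bond, read 13.91, 12.75, 12.31, 12.47 and 12.36 in DED, 14.14, 14.30, 14.32, 14.29 and 14.13 in MA and 8.75, 8.59, 8.90, 8.24 and 8.77 in MSC. Every DED array lay below every MA array, array 1 by a small margin. DGAT2 was 2.78-fold lower in DED than in MA (log2 difference -1.48, SE 0.22, limma adjusted p = 3.8e-05), with a log2 difference of -1.76 without array 1, and it was still 17.3-fold higher in DED than in MSC. MOGAT1, a monoacylglycerol acyltransferase, was at 3.89 ± 0.19 in DED, 4.80 ± 0.30 in MA and 3.99 ± 0.32 in MSC, at or under the negative control median, so its call rests on background-level signal.

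Of the genes of control and storage, THRSP, a small lipogenic regulator also known as Spot 14, had the widest range. It read 11.16, 9.79, 9.20, 9.27 and 9.73 in DED, 12.71, 12.84, 12.63, 12.74 and 12.79 in MA and 5.0, 3.95, 4.53, 4.13 and 3.93 in MSC. The MA arrays lay close together and the DED arrays were spread, with array 1 the highest. THRSP fell by 2.91 in DED against MA (SE 0.28, limma adjusted p = 9.3e-08), and the difference was -3.24 without array 1. THRSP stayed above MSC by 5.52. SREBF1, which encodes SREBP-1, read 14.48, 14.0, 13.85, 14.12 and 13.72 in DED, 15.05, 15.13, 15.06, 15.09 and 15.12 in MA and 13.14, 13.55, 13.13, 13.19 and 12.98 in MSC. The groups of SREBF1 did not overlap. It was 2.08-fold lower in DED than in MA (log2 difference -1.06, SE 0.13, limma adjusted p = 4.1e-06).

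MLXIPL, which encodes ChREBP, was dim and variable, with 7.55 ± 0.37 in DED, 7.55 ± 0.59 in MA and 6.49 ± 0.44 in MSC. The interval of its difference in DED against MA ran from -0.53 to 0.52. PNPLA3, a droplet-bound lipase, was 7.16 ± 0.27 in DED, 7.60 ± 0.39 in MA and 5.30 ± 0.37 in MSC, and did not pass in DED against MA (limma adjusted p = 0.10, and 0.041 without MA array 1). BSCL2 encodes seipin, which shapes nascent lipid droplets. It read 9.11, 8.78, 8.78, 8.34 and 8.83 in DED, 9.79, 9.93, 10.02, 9.78 and 10.15 in MA and 9.53, 9.65, 9.57, 9.54 and 9.65 in MSC. Every DED array lay below every MSC array as well as below every MA array. BSCL2 fell by 1.17 in DED against MA (SE 0.13, limma adjusted p = 4.6e-07) and was lower in DED than in MSC by 0.82 (SE 0.13, limma adjusted p = 2.3e-05). Its rise of 0.35 in MA against MSC (limma adjusted p = 0.039) did not pass without any 1 MSC array or without MA array 2, 3 or 5, where the limma adjusted p was 0.051 to 0.10 (over all alternatives 0.014 to 0.1).

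**Figure D3:**
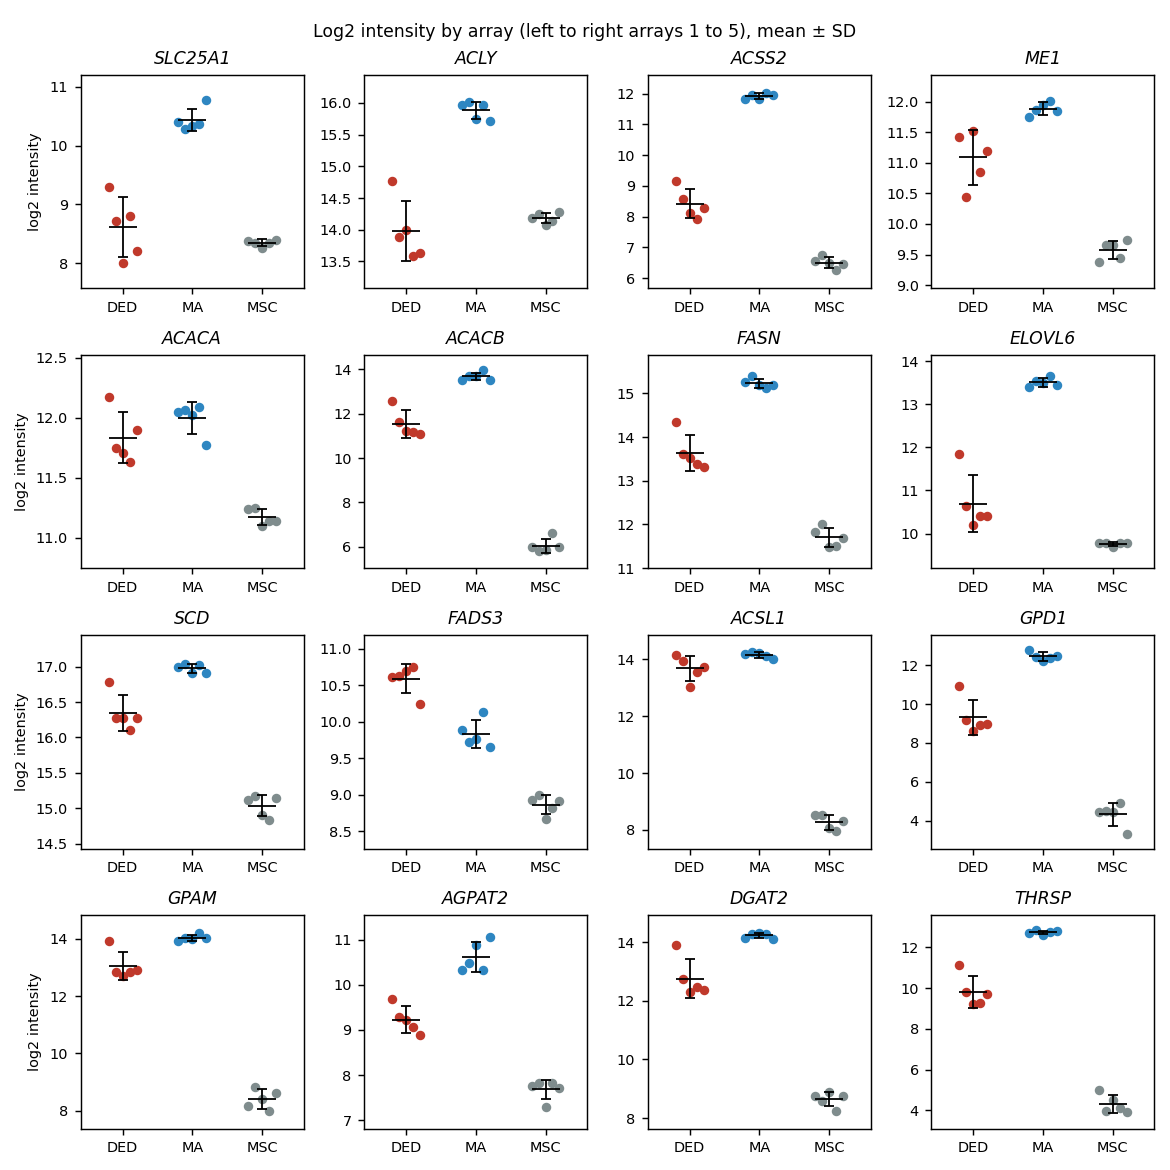
Log2 intensity of 16 member genes in each array (points, arrays 1 to 5 from left to right in each group) with the mean and SD of 5 arrays, for DED (red), MA (blue) and MSC (grey); each panel has its own axis. FADS3 is highest in DED, ACLY and SLC25A1 have DED points on both sides of the MSC points, and DED array 1 is the highest DED point for ACACB, ELOVL6, GPD1 and THRSP.

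The share of the log2 rise that was left in DED, computed as the DED level above MSC over the MA level above MSC, describes how unequal the return was. Over the 22 members that rose by 1 log2 unit or more in MA, its median was 62.3%. ACLY was at -12.4 ± 28% (SD over 5 DED arrays), SLC25A1 at 12.5 ± 24.5%, ELOVL6 at 25 ± 17.6% and ACSS2 at 35.2 ± 8.7%. Left out after seeing the data, DED array 1 moved these shares to -24.1 ± 11.5% for ACLY, 4.3 ± 18.5% for SLC25A1, 17.3 ± 4.9% for ELOVL6 and 31.8 ± 4.9% for ACSS2 (SD, n = 4), and the median of the 22 to 56.6%. With all 5 arrays FASN kept 54.8 ± 11.8% and SCD 67.3 ± 13.2%. Higher shares were left for DGAT2 at 73.6 ± 11.9%, GPAM at 82.4 ± 8.8% and ACSL1 at 92.0 ± 7.3%. These shares use the same MA and MSC means for all DED arrays, carry no test, and for genes near background in MSC they depend on that background.

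Related enzymes were then compared within each array, so that the shift of 1 gene is read against that of its relative in the same RNA. Of the 12 pairs set up, 9 had both genes, which gave 27 two-sided exact permutation tests over arrays, adjusted together by Benjamini-Hochberg. With 5 arrays against 5 the smallest p these permutations can give is 0.0079, or 0.012 after adjustment. In DED against MA 6 of 9 pairs passed, in MA against MSC 7 and in DED against MSC 7. These counts include pairs with a gene under background in every group, which are not read as unequal change. The tests reuse the arrays of the limma calls and are not separate support for them. No share over other pairs of genes was computed. ACACB shifted by -1.98 (SE 0.21) relative to ACACA in DED against MA and by 6.81 (SE 0.17) in MA against MSC (exact adjusted p = 0.012 each). The size of the shift against MSC depends on background, since ACACB averaged 6.05 there, under the 8.31 limit.

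ELOVL6 shifted by -2.40 (SE 0.26) relative to ELOVL5 in DED against MA, AGPAT2 by -1.29 (SE 0.19) relative to AGPAT1, and ACSS2 by -1.60 (SE 0.12) relative to ACLY. FADS2 shifted by -0.89 (SE 0.12) relative to FADS3, and all 5 of these pairs had groups that did not overlap (exact adjusted p = 0.012 each). In DED and MA all of these genes had means above the 8.31 limit of background. ACSS2 cleared it narrowly in DED, with a mean of 8.41 and arrays 3, 4 and 5 at 8.13, 7.94 and 8.29. The size of its shift relative to ACLY therefore depends on background in DED. The other 4 pairs each hold a gene under that limit in every group, ACSL4, GPAT3, GPAT4 or SCD5. Their shifts depend on background and are not read as unequal change. ACSL1 shifted by -0.50 (SE 0.20) relative to ACSL4 (exact adjusted p = 0.034). GPAM shifted by -0.94 (SE 0.35) relative to GPAT4, which did not pass (exact adjusted p = 0.058). SCD shifted by -0.076 (SE 0.18) relative to SCD5 (exact adjusted p = 0.68), and GPAT3 shifted by -0.44 (SE 0.27) relative to GPAT4 (exact adjusted p = 0.15). No shift compares levels between probe sets.

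**Figure D4:**
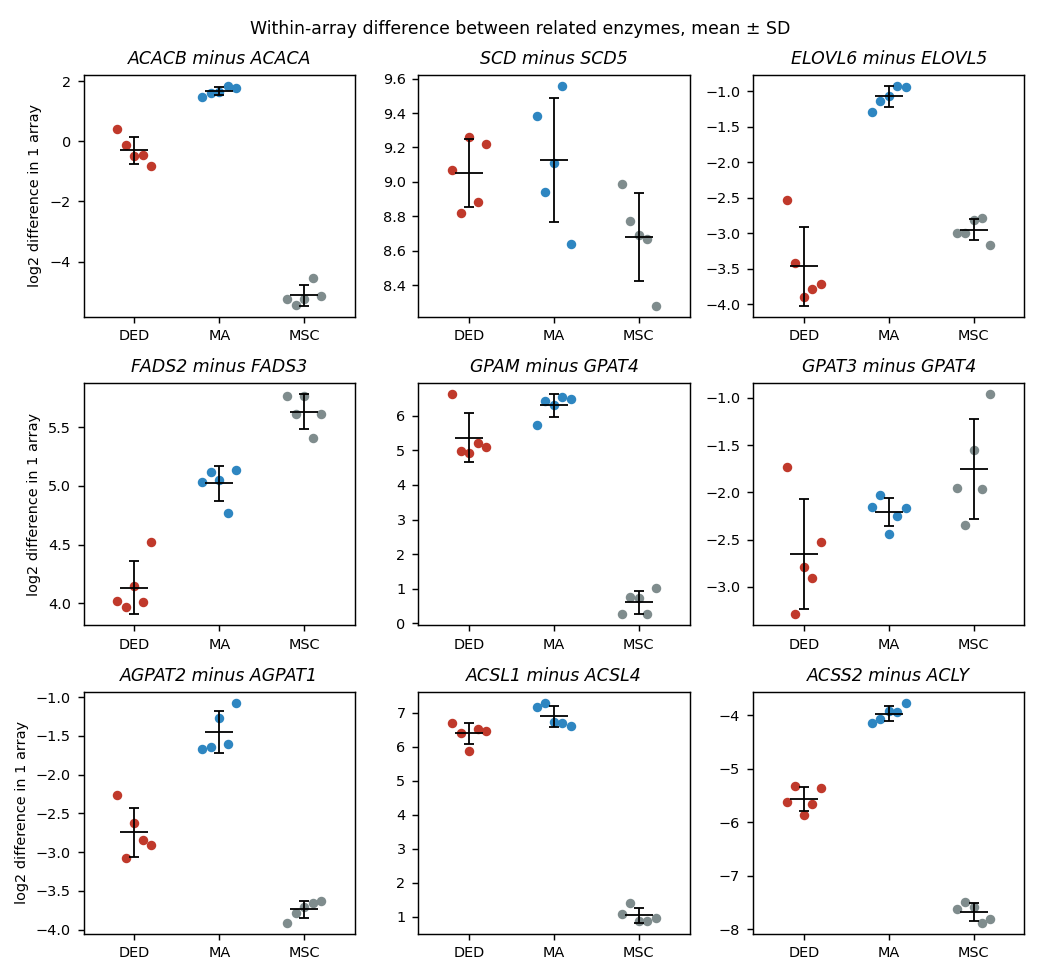
Within-array log2 difference between the probe sets of 2 related enzymes for 9 pairs (points are arrays 1 to 5 from left to right, with mean and SD), in DED (red), MA (blue) and MSC (grey); each panel has its own axis and only the shift between groups carries meaning. ACACB minus ACACA, ELOVL6 minus ELOVL5 and ACSS2 minus ACLY are highest in MA, whereas FADS2 minus FADS3 is lowest in DED.

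Genes of the wider pathway, outside the 33 members, were counted by list, beside the 12.9% of all genes that passed as higher and the 13.0% that passed as lower in DED against MA. Of 7 measured genes of the elongation cycle 3 fell in DED against MA (42.9%) and 0 rose. HSD17B12, a reductase of that cycle, was 12.22 in DED and 12.74 in MA, a fall of 0.52 (SE 0.10, limma adjusted p = 0.00059). Of 11 glycerolipid relatives 3 rose (27.3%) and 2 fell (18.2%). PCK2, the mitochondrial counterpart of PCK1, rose by 1.95 in DED against MA (SE 0.21, limma adjusted p = 5.5e-07), where PCK1 fell. It was 8.38 in DED, 6.43 in MA and 7.96 in MSC. PCK2 had fallen in MA against MSC, and DED did not pass against MSC (limma adjusted p = 0.15). LCLAT1, an acyltransferase of cardiolipin and other phospholipids, rose by 1.58 (SE 0.11, limma adjusted p = 8.2e-10). PLPP3, a phospholipid phosphatase, fell by 0.87 (SE 0.14, limma adjusted p = 8.6e-05).

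Of 8 measured genes of NADPH and citrate supply 3 fell in DED against MA (37.5%) and 1 rose (12.5%), the share higher being near that of all genes. CS, citrate synthase, fell by 0.86 (SE 0.12, limma adjusted p = 1.8e-05) and MDH1, the cytosolic malate dehydrogenase, by 0.88 (SE 0.09, limma adjusted p = 1.8e-07), beside the falls of SLC25A1 and ACLY. Of 11 genes of SREBP and LXR control 3 fell (27.3%) and 2 rose (18.2%). INSIG2, which holds SREBP precursors in the endoplasmic reticulum, rose by 1.03 (SE 0.13, limma adjusted p = 3.7e-06), with 12.07 in DED and 11.04 in MA. SREBF2, the sterol-directed relative of SREBF1, rose by 0.76 (SE 0.12, limma adjusted p = 5.3e-05). It was 12.42 in DED, 11.66 in MA and 12.66 in MSC. SREBF2 had fallen in MA against MSC, and DED did not pass against MSC (limma adjusted p = 0.13). NR1H3, the oxysterol receptor LXR alpha, fell by 0.72 (SE 0.12, limma adjusted p = 9.1e-05). SCAP, the escort of SREBP, was 13.21 in DED and 13.28 in MA and did not pass (limma adjusted p = 0.72).

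The remaining relatives were split. Of 4 measured genes of mitochondrial fatty acid synthesis, 1 rose and 1 fell in DED against MA (25% each). In MA against MSC 4 rose, where 15.4% of all genes did, and in 1 of them the groups did not overlap. MECR, its enoyl reductase, rose by 0.48 in DED (SE 0.12, limma adjusted p = 0.0053), with 7.31 in DED and 6.83 in MA. Of 7 other acyl-CoA synthetases 2 rose (28.6%) and 3 fell (42.9%) in DED against MA. SLC27A3, a synthetase of the fatty acid transport protein family, fell by 2.83 (SE 0.17, limma adjusted p = 9.8e-11), with 7.35 in DED, 10.18 in MA and 6.72 in MSC. ACSS1, the mitochondrial counterpart of ACSS2, rose by 0.94 in DED (SE 0.18, limma adjusted p = 0.00044), with 9.29 in DED, 8.35 in MA and 6.92 in MSC, where ACSS2 fell. These lists hold few genes, and nothing particular to them is read from the shares. MECR in all 3 groups, PCK2 in MA and MSC, SLC27A3 and NR1H3 in DED and MSC and ACSS1 in MSC lay below the 8.31 limit of background, and the sizes of their differences depend on background.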

How the data were processed

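Expression was measured on whole-transcriptome microarrays in 15 samples, with no read depth, so the number of arrays limits the precision. The authors deposited log2 intensities and, per the submitters' processing notes, made them with RMA in the Transcriptome Analysis Console. Which RMA variant and which genome build were used is not given in the sources used here. Values had 2 decimals and ran from 2.61 to 18.35. Of 24351 probe sets 17709 named 1 gene symbol, and 17687 genes remained after the probe set with the highest mean was kept where a gene had several, which touched 20 genes. The members and lists were chosen with earlier results of these data known. Groups were compared by limma 3.58.1 in R 4.3.3 over all 17687 genes and 15 arrays, with no covariate and with Benjamini-Hochberg adjustment at 0.05. The fit uses 1 spread per gene for all groups. Where the DED arrays were more spread than the others, the limma SE of a DED difference is too small. The steps were tested on simulated data. Pairs of related enzymes were compared by two-sided exact permutation tests in SciPy 1.17.1.

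Values in every array are given for members whose groups did not overlap and whose log2 difference reached 1 in DED against MA or 3 in MA against MSC, and for members that went against most of their step. Alternatives were another normalization, a common array median, dim genes under the 25th percentile left out, another probe set, another variance model, array weights, fewer groups in the fit, arrays left out and the replicate number as a block. No 2 arrays held identical values. Of 15 pairs of arrays with the same number, 0 had deviations correlated over 0.1 (range -0.108 to 0.087), so the numbers were not taken as pairs.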

Additional observations from a re-analysis of the deposited data

Results flagged for a closer look

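Each value here lay far from the other 4 arrays of its group, with a gap over 0.71 of the group's range (Dixon's criterion). Of 99 groups of 5 arrays 14 met this, where chance gives about 1 in 20, or 5.0. DED array 1 held 5 of them, each the highest of its group. There ELOVL6 read 11.84 against 10.19 to 10.64 in the other DED arrays, SCD 16.78 against 16.11 to 16.28, and GPD1 10.91 against 8.61 to 9.18. GPAM read 13.92 in DED array 1 against 12.70 to 12.92, and DGAT2 13.91 against 12.31 to 12.75. The mean of the 8 adipocyte markers was also highest in that array among DED, although LEP and PPARG were highest in array 3, and their part in these values was not tested.

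Among the other DED arrays, FADS3 read 10.25 in array 5 against 10.62 to 10.75, still above every MA array, and AGPAT1 read 12.37 in array 2 against 11.80 to 11.95. In MA, SLC25A1 read 10.77 in array 5 against 10.29 to 10.40, ACACA read 11.77 in array 5 against 12.02 to 12.09, and GPAT4 read 8.19 in array 1 against 7.54 to 7.68. In MSC, ELOVL6 read 9.69 in array 3 against 9.78 in all 4 others, a group so tight that a small step meets the criterion. ACACB read 6.60 in MSC array 4 against 5.81 to 6.0, AGPAT2 7.30 in array 3 against 7.71 to 7.82, and LPIN3 6.26 in array 1 against 6.71 to 6.87.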

How the results depend on the processing

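Over 24 alternatives and 99 differences, none of the 78 that passed reversed and 4 lost the call somewhere, ACSL1 and SCD5 in DED against MA and BSCL2 and GPAT3 in MA against MSC. In DED against MA 20 to 23 members were lower and 1 was higher. The count lower in MA was 0 to 1 with single arrays left out, the 1 being GPAT3. With the replicate number as a block (an exact sign flip over numbers), 0 pairs of enzymes passed in each comparison, since 5 differences allow no p below 0.062; in the limma fit the block made 23 members lower in DED against MA, through GPAT3. Differences that turned sign had not passed. With 1 array left out ACSL4 ran from -0.047 to 0.091 in DED against MA, from -0.035 to 0.102 in MA against MSC (-0.007 with array weights) and from -0.008 to 0.112 in DED against MSC. GPAT4 ran from -0.102 to 0.063 in DED against MA (0.043 without DED arrays 1 and 3 together) and from -0.187 to 0.003 in MA against MSC, and LPIN2 from -0.133 to 0.05 in MA against MSC. MLXIPL ran from -0.147 to 0.218 in DED against MA, with 0.008 after quantile normalization and 0.012 with a common median. The cause was not tested. Signal near the negative controls limits 10 members in all groups.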
